A study of Mus musculus with 8 samples.

Results

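Transporters for organic ions, peptides and amines were followed in lung epithelial cells of mouse embryos at E18.5. A member was any gene of the solute carrier families Slc10a, Slc15a, Slc18a, Slc22a, Slc28a, Slc29a and Slc47a, or with a symbol starting Slco, that a probe set of the array names as its single gene. This gave 62 of 19938 measured genes, each with 1 probe set. The rule reads gene symbols and not expression values, though it was chosen with earlier results of these data known. The study placed RNA of Epcam(+) cells, selected with magnetic beads from dissociated lungs, on single-colour arrays. The 4 knockout arrays, labelled Mst1/2 CKO, are from embryos in which the Hippo kinases Mst1 and Mst2 were deleted conditionally with ShhCre, which acts in the epithelial progenitors of the lung, and the 4 others are labelled Control. The labels give neither the alleles of the control embryos nor whether an array holds the cells of 1 embryo. The labels call the arrays biological replicates, and p-values measure the spread between them. Both groups were selected on Epcam, and airway, type 1, type 2 and other epithelial cells enter a sample together. In such bulk RNA, fewer cells of a type and less RNA per cell cannot be told apart.

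These carriers move charged or polar small molecules across membranes and decide which drugs, hormones and metabolites a cell takes up. The Slc22a and Slco families import organic anions and cations (Slco proteins are the organic anion transporting polypeptides), Slc15a proteins bring in di- and tripeptides with protons, Slc18a proteins load amines into vesicles, and Slc28a and Slc29a proteins carry nucleosides. Slc10a members include the bile acid carriers and Slc47a members export organic cations. In the lung, the peptide transporter Slc15a2 and several organic cation carriers are known from the epithelium, while many members are best known from liver, kidney or testis. The comparison asks which of these transcripts differ when the kinases that restrain the coactivators Yap and Taz are lost.

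Of these genes 3 fell by more than 2-fold, while most, like most of all measured genes, showed no called difference. In knockout cells Slc22a19, an organic anion transporter known from mouse kidney, fell 5.01-fold, Slco4c1, an organic anion transporting polypeptide, fell 4.31-fold, and Slc18a1, a vesicular monoamine transporter, fell 2.30-fold. Of the 62 members 6 fell, 2 rose and 54 did not pass limma's test at an adjusted p of 0.05, over 8 arrays and with adjustment over all 19938 genes. That is 12.9% of the members, against 18.8% of all genes, and by direction 8.6% of all genes passed as higher and 10.2% as lower. Changes of at least 2-fold were called in 3 of the 62 members and in 344 of all 19938 genes (1.73%). The median difference, knockout minus control on the log2 scale, was −0.05 over the members and −0.02 over all genes. The groups did not overlap in 10 members, 8 of them lower and 2 higher in knockout, and in 22.1% of all genes.

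Many of the transporters were dim. The 1027 olfactory receptor genes on the array, which lung epithelium is not known to use, had a mean level at or below 6.48 in 95% of cases. In 30 of the 62 members the mean lay at or below that level in both groups. Among those 30, 1 gene passed, and among the other 32, 7 passed (21.9%, against 24.8% of all genes above that level). Brightness differs between probe sets, so this level is a guide and not a detection call.

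**Figure D1:**
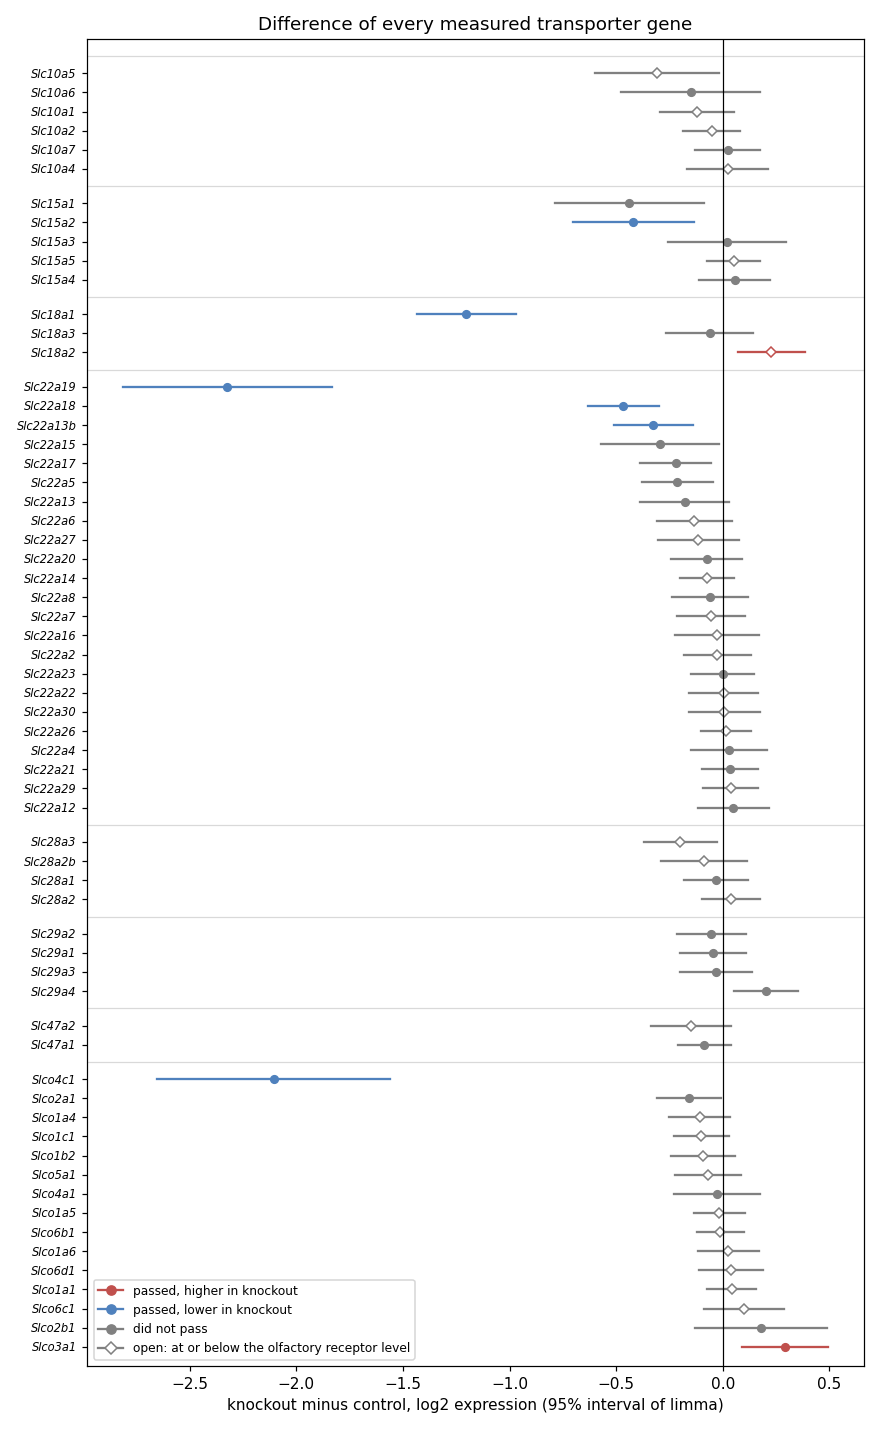
Knockout minus control difference in log2 expression (horizontal axis) with limma's 95% interval for each of the 62 transporter genes, grouped by family from Slc10a at the top to Slco at the bottom. Red and blue mark genes that passed as higher and lower in knockout and grey the rest. Filled points are genes above the olfactory receptor level of 6.48 in either group and open diamonds are the 30 genes at or below it. Slc22a19 (−2.33), Slco4c1 (−2.11) and Slc18a1 (−1.20) stand far to the left, and most other points lie near 0.

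The DNA just before the start of the most reduced members is shown because these are the members with the largest falls, and their windows differ in make-up. The 250 bases before the annotated start are from RefSeq on GRCm38.p6, written 5′ to 3′ on the gene's strand, with every CG pair in capitals, a marking chosen after the windows were seen. Slc22a19 lies on the minus strand of chromosome 19 (chr19:7711311-7711560) and Slco4c1 on the minus strand of chromosome 1 (chr1:96872172-96872421).
Slc22a19: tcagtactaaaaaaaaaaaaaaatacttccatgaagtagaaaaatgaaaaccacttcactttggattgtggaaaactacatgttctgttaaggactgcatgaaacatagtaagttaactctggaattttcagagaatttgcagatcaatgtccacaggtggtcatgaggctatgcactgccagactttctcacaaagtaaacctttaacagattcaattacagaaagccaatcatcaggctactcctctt
Slco4c1: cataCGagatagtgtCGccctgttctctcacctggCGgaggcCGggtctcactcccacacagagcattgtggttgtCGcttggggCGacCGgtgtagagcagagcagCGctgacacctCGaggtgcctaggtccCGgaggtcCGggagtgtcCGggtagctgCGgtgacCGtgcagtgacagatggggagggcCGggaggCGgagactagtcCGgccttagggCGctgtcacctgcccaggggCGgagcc
The Slc22a19 window held 0 CG pairs and 35.6% G or C, and the Slco4c1 window held 19 CG pairs and 66.4% G or C. The median over 32851 RefSeq windows of this length was 6 CG pairs and 52.4% G or C. The core letters of the Tead site, GGAATG on either strand, occurred in 12.6% of all windows and in 16 of the 66 windows of 53 members (24.2%), and in 0 of the 5 windows of members that passed. The AP-1 letters TGANTCA, on both strands, occurred in 6.75% of all windows, in 2 of the members' windows and in 0 of those 5. A match is a description of the letters alone. The members with a window among those that passed were Slc22a19, Slco4c1, Slc22a18, Slc15a2 and Slc18a2.

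Among the organic anion carriers, Slc22a19 showed the largest difference of all 62 genes. Its mouse protein, also called Oat5, exchanges dicarboxylates for organic anions such as steroid sulfates in the kidney. Its log2 level was 6.54, 6.07, 5.74 and 5.34 in knockout replicates 1 to 4, against 8.19, 8.50, 7.91 and 8.39 in control replicates 1 to 4. The lowest control array thus lay well above the highest knockout array. The group means were 5.92 ± 0.51 in knockout and 8.25 ± 0.26 in control (SD, n = 4 each), a difference of −2.33 (SE 0.22, limma adjusted p = 5.34e-05). An exact two-sided permutation test over the 70 assignments of the arrays gave p = 0.0286, the smallest p it can give. In knockout replicates 2 to 4 the level was below the olfactory receptor level of 6.48, so the size of the fall may be a lower bound. Slc22a19 sits in a row of related Slc22a genes on chromosome 19, and cross-hybridisation with them cannot be told apart on this array. The next genes in that row, Slc22a26 (5.10 in knockout and 5.08 in control) and Slc22a27 (3.69 and 3.80), were dim and did not pass.

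Slco4c1, whose human and rat proteins carry digoxin and thyroid hormone in the kidney, showed the next largest difference. It measured 8.99, 8.35, 8.45 and 7.54 in knockout replicates 1 to 4, against 10.52, 10.72, 10.33 and 10.18 in control replicates 1 to 4. The groups did not overlap, and the knockout arrays were spread more widely (8.33 ± 0.60) than the control arrays (10.44 ± 0.23; SD, n = 4 each). The difference was −2.11 (SE 0.25, limma adjusted p = 0.000177; exact permutation p = 0.0286). It was −1.84 without knockout replicate 4, the lowest array, and −2.33 without knockout replicate 1, the highest. Its neighbours Slco6b1 (4.32 in knockout and 4.34 in control) and Slco6c1 (5.37 and 5.27), both members of the same family, were dim and did not pass.

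Slco3a1, a broadly used organic anion transporting polypeptide known for prostaglandins and thyroxine, moved the other way. It measured 11.350, 11.384, 11.135 and 11.216 in knockout replicates 1 to 4, against 11.207, 10.839, 10.864 and 11.001 in control replicates 1 to 4. Control replicate 1 lay within the knockout range, so the groups overlapped. The means were 11.27 ± 0.12 in knockout and 10.98 ± 0.17 in control (SD, n = 4 each), a rise of 0.29 (SE 0.091, limma adjusted p = 0.0468; exact permutation p = 0.0571). The call ended with any 1 of knockout replicates 1, 2 and 4 or control replicates 2, 3 and 4 left out, and with each array centred on its median. It also ended with the mean of 12 mesenchymal markers as a covariate, and without knockout replicates 1 and 4 together. The means of 9 endothelial markers were 9.21 to 9.38 in knockout and 8.88 to 9.19 in control arrays. Of these 9, 4 were higher and 0 lower. Of 14 type 1 markers 11 rose and 0 fell, and of 8 basal and stratified markers 5 rose and 0 fell. The part of any of these cells in the rise of Slco3a1 was not tested.

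The 13 other Slco genes did not pass. Slco2a1, the prostaglandin transporter, differed by −0.16 (SE 0.068, limma adjusted p = 0.150), with levels of 10.97 to 11.16 in knockout and 11.15 to 11.38 in control arrays. Slco2b1, which is widely expressed, differed by 0.18 (SE 0.14, limma adjusted p = 0.465). Its highest value, 8.50, was that of control replicate 2, the array in which the mean of 9 leukocyte markers was highest (9.54, against 8.83 to 9.18 in the other control arrays and 9.10 to 9.18 in knockout arrays). That mean includes Lyz1, which distal lung epithelium also expresses, at 10.54 to 12.38 in knockout and 13.19 to 13.37 in control arrays. Lyz1 thus lowers the knockout means, whereas 7 of the 9 markers differed upward in knockout. Without control replicate 2 Slco2b1 passed as higher in knockout (0.33, limma adjusted p = 0.0428). The part of leukocytes in the Slco2b1 values was not tested. Slco4a1, the closest namesake of Slco4c1, differed by −0.03 (SE 0.092). The remaining 10, Slco1a1, Slco1a4, Slco1a5, Slco1a6, Slco1b2, Slco1c1, Slco5a1, Slco6b1, Slco6c1 and Slco6d1, all lay at or below the olfactory receptor level in both groups. Slco1c1 did not overlap between groups but differed by only −0.10.

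The vesicular amine transporters differed from each other. Slc18a1 (VMAT1), which loads monoamines into secretory vesicles of neuroendocrine cells, measured 6.89, 6.85, 6.90 and 6.58 in knockout replicates 1 to 4, against 8.03, 8.22, 8.04 and 7.75 in control replicates 1 to 4. All knockout arrays lay below all control arrays. The means were 6.81 ± 0.15 in knockout and 8.01 ± 0.19 in control (SD, n = 4 each), a difference of −1.20 (SE 0.11, limma adjusted p = 3.32e-05; exact permutation p = 0.0286). Of 9 listed neuroendocrine markers 7 were measured, of which 1 fell (Resp18) and 1 rose (Uchl1). Their mean was 6.52 to 6.63 in knockout and 6.52 to 6.66 in control arrays. Of the 7, 3 lay at or below the olfactory receptor level in both groups, Resp18 among them. The gene next to Slc18a1, Atp6v1b2, encodes a subunit of the proton pump that powers vesicular uptake and also fell (−0.80, SE 0.12, limma adjusted p = 0.000821).

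Slc18a2 (VMAT2), which loads monoamines and histamine in neurons, mast cells and platelets, measured 6.53, 6.36, 6.32 and 6.52 in knockout replicates 1 to 4, against 6.13, 6.32, 6.15 and 6.23 in control replicates 1 to 4. The groups did not overlap, and the gap between them was 0.0059. The difference was 0.23 (SE 0.071, limma adjusted p = 0.0486), both means lay below the olfactory receptor level, and the call ended without any 1 of knockout replicates 1, 2 and 4 or control replicates 1, 3 and 4. It also ended under both other scalings of the arrays. Slc18a3, the vesicular acetylcholine transporter, differed by −0.06 (SE 0.091) and did not pass.

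In the organic anion, cation and zwitterion family Slc22a, 3 of the 23 measured genes fell (Slc22a19, given above, Slc22a18 and Slc22a13b), 0 rose and the other 20 did not pass. Slc22a18, an imprinted gene expressed from the maternal copy and related to organic cation transporters, measured 7.66, 7.86, 7.67 and 7.88 in knockout replicates 1 to 4, against 8.30, 8.26, 8.29 and 8.08 in control replicates 1 to 4. The groups did not overlap, with means of 7.77 ± 0.12 in knockout and 8.23 ± 0.099 in control (SD, n = 4 each). The difference was −0.47 (SE 0.076, limma adjusted p = 0.00144). Of its neighbours in the same imprinted region of chromosome 7, Phlda2, a growth-restraining gene of the placenta, fell by 0.63 (SE 0.098) and the potassium channel Kcnq1 fell by 0.56 (SE 0.097). The cell cycle inhibitor Cdkn1c differed by −0.03 (SE 0.061) and Nap1l4 by 0.09 (SE 0.055), and neither passed.

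Slc22a13b is annotated as a transcribed pseudogene next to Slc22a13, a urate and nicotinate carrier in humans. It measured 7.26, 7.28, 7.24 and 7.39 in knockout replicates 1 to 4, against 7.64, 7.38, 7.77 and 7.67 in control replicates 1 to 4. Control replicate 2 lay inside the knockout range, and the difference was −0.32 (SE 0.083, limma adjusted p = 0.0198; exact permutation p = 0.0571). The call ended without any 1 of knockout replicate 3 and control replicates 1, 3 and 4. Slc22a13 itself differed by −0.18 (SE 0.094, limma adjusted p = 0.245), and signals of such similar genes may mix.

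Carriers of carnitine and related cations did not pass. Slc22a5 (OCTN2), the main carnitine importer of the cell, measured 8.09, 8.06, 8.02 and 7.79 in knockout replicates 1 to 4, against 8.15, 8.19, 8.17 and 8.31 in control replicates 1 to 4. The groups did not overlap, but the difference of −0.21 (SE 0.075) had a limma adjusted p of 0.0765. Slc22a4, which carries ergothioneine, differed by 0.03 (SE 0.080) and Slc22a21, a further carnitine carrier of the mouse, by 0.04 (SE 0.059). Slc22a17, described as a receptor for lipocalin 2, differed by −0.22 (SE 0.075, limma adjusted p = 0.0674), and it passed with each array centred on its median (limma adjusted p = 0.0384), without knockout replicate 4 (0.0428) and without control replicate 4 (0.0369). Slc22a15 differed by −0.30 (SE 0.12, limma adjusted p = 0.140). Slc22a23, which has no settled substrate, gave 11.01 in both groups, with a 95% interval of the difference of −0.15 to 0.15.

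The organic anion and cation carriers Slc22a2, Slc22a6, Slc22a7, Slc22a8 and Slc22a12, known from kidney or liver, and Slc22a20, known from the olfactory mucosa, differed by −0.13 to 0.05. Slc22a14 and Slc22a16, known from testis, and Slc22a22, Slc22a26, Slc22a27, Slc22a29 and Slc22a30 differed by −0.11 to 0.04. None of these 13 passed, and all but Slc22a8, Slc22a12 and Slc22a20 lay at or below the olfactory receptor level. The multidrug and toxin extruders Slc47a1 (−0.09, SE 0.056) and Slc47a2 (−0.15, SE 0.085) did not pass either.

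**Figure D2:**
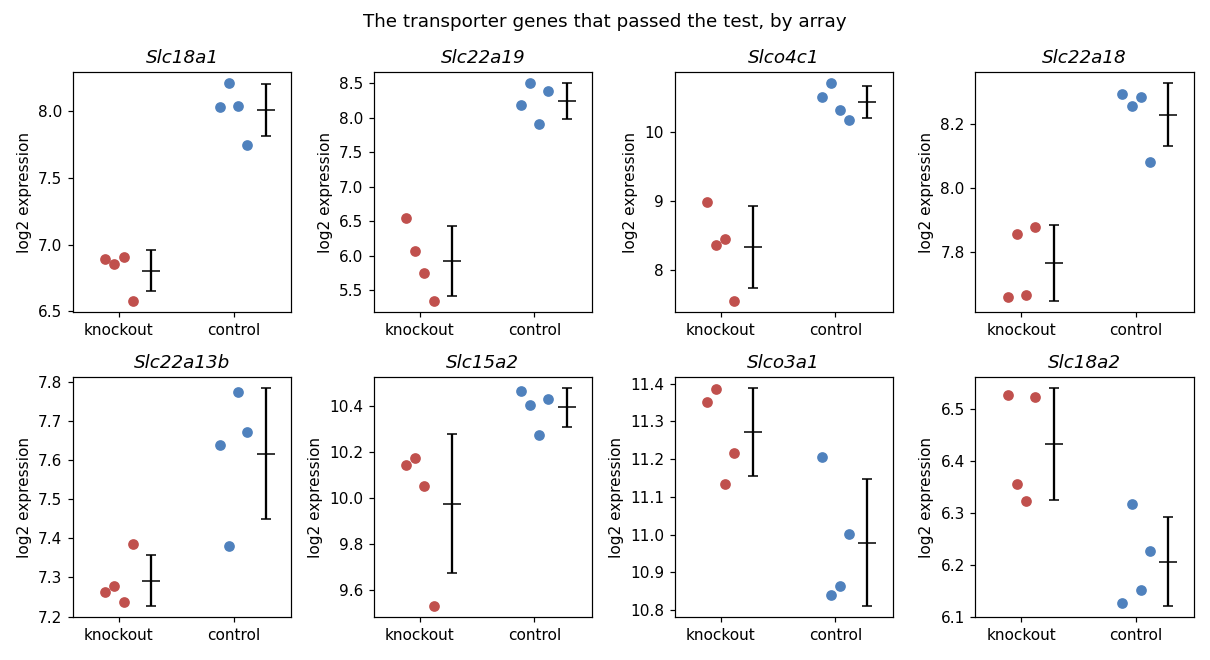
Log2 expression (vertical axis, a separate range in each panel) of the 8 transporter genes that passed the test, for the 4 knockout arrays (red, left) and the 4 control arrays (blue, right), with the mean and SD of each group beside the points. The groups are far apart in Slc18a1, Slc22a19 and Slco4c1, closer in Slc22a18, Slc15a2 and Slc18a2, and overlap in Slc22a13b and Slco3a1.

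Of the 5 peptide transporters, Slc15a2 fell. Slc15a2 (PEPT2) takes up di- and tripeptides and peptide-like drugs with high affinity in kidney and lung epithelium. It measured 10.15, 10.18, 10.05 and 9.53 in knockout replicates 1 to 4, against 10.47, 10.40, 10.27 and 10.43 in control replicates 1 to 4. No knockout array reached the control range, and knockout replicate 4 lay lowest by far. The means were 9.97 ± 0.30 in knockout and 10.39 ± 0.084 in control (SD, n = 4 each), a difference of −0.42 (SE 0.13, limma adjusted p = 0.0442; exact permutation p = 0.0286). The difference was −0.27 without knockout replicate 4, where it still passed (limma adjusted p = 0.0161). The call ended without any 1 of knockout replicate 3 and the 4 control arrays (adjusted p of 0.0638 to 0.108). It also ended with each array centred on its median (−0.43, adjusted p = 0.0635) and with the mean of the mesenchymal markers as a covariate (−0.23, adjusted p = 0.367), and that mean was 8.17 to 8.68 in knockout and 7.95 to 8.38 in control arrays.

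The intestinal peptide transporter Slc15a1 (PEPT1) measured 7.54, 7.42, 7.43 and 6.95 in knockout replicates 1 to 4, against 8.06, 7.92, 7.74 and 7.37 in control replicates 1 to 4. Its difference was as large as that of Slc15a2 (−0.44, SE 0.16), but the groups overlapped and it did not pass (limma adjusted p = 0.0834). Without control replicate 4, the lowest control array, it passed (−0.57, limma adjusted p = 0.0189). The lysosomal carriers of peptides and histidine, Slc15a3 and Slc15a4, differed by 0.02 (SE 0.13) and 0.06 (SE 0.075). The highest Slc15a3 value, 9.06, was again that of control replicate 2, and a part of leukocytes in it was not tested. Slc15a5 was dim and differed by 0.05.

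Nucleoside carriers showed no call. Slc29a1 and Slc29a2, the equilibrative transporters of the cell surface, differed by −0.05 (SE 0.070) and −0.05 (SE 0.074), and the lysosomal Slc29a3 by −0.03 (SE 0.076). Their 95% intervals reached from −0.22 at the lowest to 0.14 at the highest. Slc29a4 (PMAT), which carries monoamines at the plasma membrane, measured 6.96, 7.06, 7.02 and 7.12 in knockout replicates 1 to 4, against 6.91, 6.72, 6.95 and 6.78 in control replicates 1 to 4. The groups did not overlap, yet the difference of 0.20 (SE 0.068) did not pass (limma adjusted p = 0.0640). The concentrative transporters Slc28a1, Slc28a2, Slc28a2b and Slc28a3 differed by −0.20 to 0.04, and all except Slc28a1 were at or below the olfactory receptor level.

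The 6 measured bile acid family members did not pass. Slc10a1 and Slc10a2, the bile acid importers of liver and ileum, were dim and differed by −0.12 (SE 0.079) and −0.05 (SE 0.061). Slc10a6, a carrier of sulfated steroids, differed by −0.15 (SE 0.15), and Slc10a7, linked to glycan processing, by 0.02 (SE 0.069). The probe sets that name Slc10a4 or Slc10a5 alone lay at or below the olfactory receptor level, while a probe set shared by Slc10a4 and Slc10a4l averaged 6.73 in knockout and 6.86 in control arrays. Slc10a5 differed by −0.31 (SE 0.13, limma adjusted p = 0.142).

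Genes that work beside these transporters were read in the same fit. Over 9 lists of related genes, 79 of 91 listed genes were measured, of which 19 fell, 4 rose and 56 did not pass (29.1% passed, against 18.8% of all genes). These lists were drawn up with earlier results of these arrays known. Their share beside that of all genes is therefore no test, and the values of their genes are given as a description.

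Among peptidases of the cell surface, which cut peptides, 6 of 7 measured genes fell and 0 rose, with a median difference of −0.66. Anpep, aminopeptidase N, measured 8.82, 8.40, 8.70 and 8.24 in knockout replicates 1 to 4, against 10.52, 10.74, 10.56 and 10.06 in control replicates 1 to 4. The groups were separate, and Anpep fell 3.82-fold (−1.93, SE 0.15, limma adjusted p = 2.14e-05). Dpp4, which removes dipeptides from the amino end, fell 2.67-fold (−1.42, SE 0.16), and Mme, neprilysin, fell 2.59-fold (−1.37, SE 0.17). The dipeptidases Dpep1 (−0.66, SE 0.14) and Dpep2 (−0.31, SE 0.096) and the aminopeptidase Enpep (−0.55, SE 0.15) fell as well, while Ace did not pass (0.28, limma adjusted p = 0.0738). The number that fell was 3 to 6 over the alternatives, and 3 without knockout replicates 1 and 4 together. The call of Dpep2 ended in 12 and that of Enpep in 7 of the 19 alternatives.

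Of 16 measured genes of amine synthesis, uptake and breakdown, 5 fell, 1 rose and 10 did not pass, with a median of −0.08. Hdc, which makes histamine, measured 8.70, 8.35, 8.15 and 8.41 in knockout replicates 1 to 4, against 10.32, 10.78, 10.22 and 10.25 in control replicates 1 to 4. The groups were far apart, and Hdc fell 3.96-fold (−1.99, SE 0.14, limma adjusted p = 1.17e-05). Hnmt, which inactivates histamine, fell 1.61-fold (−0.69, SE 0.12), though at levels below that of the olfactory receptor genes. Tph2, of serotonin synthesis, fell at a similarly low level (−0.30, SE 0.072). The polyamine genes Odc1 (−0.26, SE 0.075) and Sat1 (−0.28, SE 0.084) fell, and the monoamine oxidase Maoa rose (0.43, SE 0.11, limma adjusted p = 0.0201). The plasma membrane uptake carriers for noradrenaline, dopamine and serotonin, Slc6a2, Slc6a3 and Slc6a4, did not pass (−0.10, −0.04 and −0.06), nor did Ddc (0.04), which makes dopamine and serotonin. Over the alternatives 3 to 5 genes of this list fell, and the calls of Sat1, Odc1 and Maoa ended in 11, 9 and 5 of 19.

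Around the nucleoside carriers 1 of 8 measured genes rose, 1 fell and 6 did not pass. Nt5e (CD73), which makes adenosine outside the cell, measured 9.44, 9.10, 9.60 and 9.26 in knockout replicates 1 to 4, against 7.60, 8.09, 7.95 and 8.08 in control replicates 1 to 4. It rose by 1.42 (SE 0.13, limma adjusted p = 4.04e-05), and no array overlapped. Entpd1 (CD39), which acts a step earlier on ATP and ADP, fell (−0.51, SE 0.10, limma adjusted p = 0.00553). Tk1, thymidine kinase, differed by 0.22 (SE 0.074, limma adjusted p = 0.0640). The uptake carriers Slc29a1 and Slc29a2, given above, did not pass.

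The ABC efflux pumps, which export many of the same anions, split in direction. Of 11 measured pumps 2 rose, 1 fell and 8 did not pass. Abcc1 rose by 0.59 (SE 0.086) and Abcc5 rose 1.49-fold (0.58, SE 0.052, limma adjusted p = 3.74e-05), while Abcc3, which exports conjugated bile acids and glucuronides, fell 1.49-fold (−0.57, SE 0.094, limma adjusted p = 0.00150). The multidrug pumps Abcb1a (0.16) and Abcg2 (0.09) and the prostaglandin exporter Abcc4 (−0.20) did not pass. Among 9 measured regulators of drug transport 2 fell, Ppara, a receptor of fatty acids (−0.76, SE 0.11), and Nfe2l2, the factor of the antioxidant response (−0.50, SE 0.092), 0 rose, and Ahr did not pass (0.19, SE 0.076). Of the 4 scaffold proteins that hold carriers at the apical membrane 0 passed limma's test, with Slc9a3r1 at −0.13, Slc9a3r2 at −0.13 and Pdzk1 at 0.04. In the limma fit 0 of these 4 had an unadjusted p under 0.05 either.

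Carnitine handling included Crat (−0.35, SE 0.070) and Cpt1a (−0.30, SE 0.064), enzymes of acylcarnitine formation, which fell, while 6 of 8 measured genes, among them the mitochondrial carrier Slc25a20 (−0.30, SE 0.14), did not pass. With the mean of the mesenchymal markers as a covariate neither Crat nor Cpt1a passed. Of 9 prostaglandin genes 1 fell, the synthase Ptges (−0.65, SE 0.13, limma adjusted p = 0.00417), and Ptgis (0.19), Ptger4 (−0.17) and 6 others did not pass. Of 7 thyroid hormone genes 1 fell, the receptor Thrb (−0.56, SE 0.064, limma adjusted p = 0.000165), while the receptor Thra (0.18, SE 0.064) and the deiodinase Dio3 (−0.14, SE 0.087) did not pass.

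**Figure D3:**
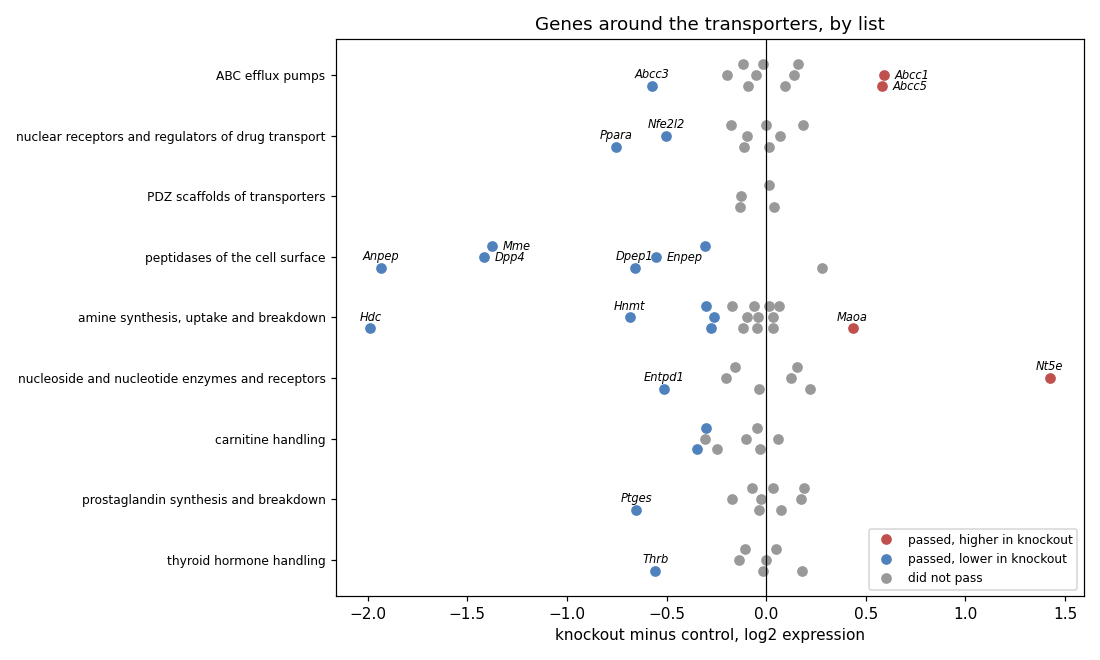
Knockout minus control difference in log2 expression (horizontal axis) of 79 measured genes in 9 lists around the transporters, each point a gene, with red and blue for genes that passed as higher or lower in knockout and grey for the rest. Hdc (−1.99) and Anpep (−1.93) lie farthest to the left and Nt5e (1.42) farthest to the right.

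Markers of the cell types were read beside these results. Of 16 type 2 markers 15 fell and 0 rose, and their mean was 11.51, 11.26, 11.33 and 10.96 in knockout replicates 1 to 4, against 12.21 to 12.43 in control arrays. The smallest p were those of Fabp5 (−1.58), S100g (−2.29) and Abca3 (−1.05), and the surfactant gene Sftpc did not pass (−0.05, SE 0.051). Knockout replicate 1 was the highest and knockout replicate 4 the lowest knockout array in the type 2 mean, and the same held for Slco4c1 and Slc22a19. Slc15a2, Slc15a1, Slc18a1 and Slc22a5 were also lowest in knockout replicate 4, whereas Slc22a18 (7.88) and Slc22a13b (7.39), which fell too, were highest there among knockout arrays. This order was not particular to type 2 markers. Among knockout arrays the type 1 mean (12.02 and 11.84) and the mean of the epithelial list (11.23 and 11.06) were also highest in replicate 1 and lowest in replicate 4. The mesenchymal (8.17 and 8.68) and endothelial (9.21 and 9.38) means were lowest in replicate 1 and highest in replicate 4. The part of type 2 cells, or of any other cells, in these differences was not tested. Of 14 type 1 markers 11 rose and 0 fell, led by Igfbp2 (2.35), Sema3e (1.04) and Scnn1g (0.74), with means of 11.84 to 12.02 in knockout and 11.28 to 11.45 in control arrays. Of 10 club and secretory markers 6 fell and 1 rose (Bpifb1 −1.42, Hp −0.60 and Aldh1a7 −0.78 by smallest p), and of 10 ciliated markers 6 fell and 0 rose (Ccno −0.91, Rfx3 −0.37 and Lrrc23 −0.81). The count of ciliated markers that fell was 3 without any 1 of knockout replicates 1 and 3 or control replicates 2, 3 and 4, and 3 with the mesenchymal covariate.

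Of the other lists, 5 of 8 basal and stratified markers rose (Krt4 2.27, Krt13 0.77 and Krt14 0.35), 2 of 12 mesenchymal markers rose (Pdgfrb 0.57 and Col1a2 0.49, with Col1a1 at 0.46 not passing), and 4 of 9 endothelial markers rose (Vwf 0.50, Tek 0.45 and Tie1 0.41 by smallest p). The mesenchymal count was 6 without knockout replicate 1, 4 without control replicate 4, and 0 without any 1 of knockout replicates 3 and 4 or control replicates 1, 2 and 3. The endothelial count was 4 to 6 with 1 array left out and 1 with the mesenchymal covariate. Among 9 leukocyte markers Itgam (0.56) and Mrc1 (0.39) rose and Lyz1 (−1.92) fell, a lysozyme that distal lung epithelium also expresses. The number of leukocyte markers that rose was 4 without control replicate 2, 1 without knockout replicate 1 and 0 without any other single array. Among 3 erythroid markers Epor rose (0.33), and Alas2 and Slc4a1 did not pass. Among 5 mesothelial markers Msln (0.75) and Krt19 (0.62) rose, and Wt1 did not pass (0.17). In the epithelial list of 10, Krt19 and Krt8 rose, Elf3 (−0.72) and Cldn3 (−0.49) fell, and the list mean was 11.06 to 11.23 in knockout and 11.10 to 11.29 in control arrays. Scg2, of the neuroendocrine list, differed by −0.25 and did not pass. The targeted gene Stk4, which encodes Mst1, measured 9.24 to 9.45 in knockout and 9.59 to 9.84 in control arrays (−0.30, SE 0.076, limma adjusted p = 0.0188). Whether its probe set covers the deleted sequence is unknown, so it is no check of the deletion, and Stk3 was not analysed here.

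**Figure D4:**
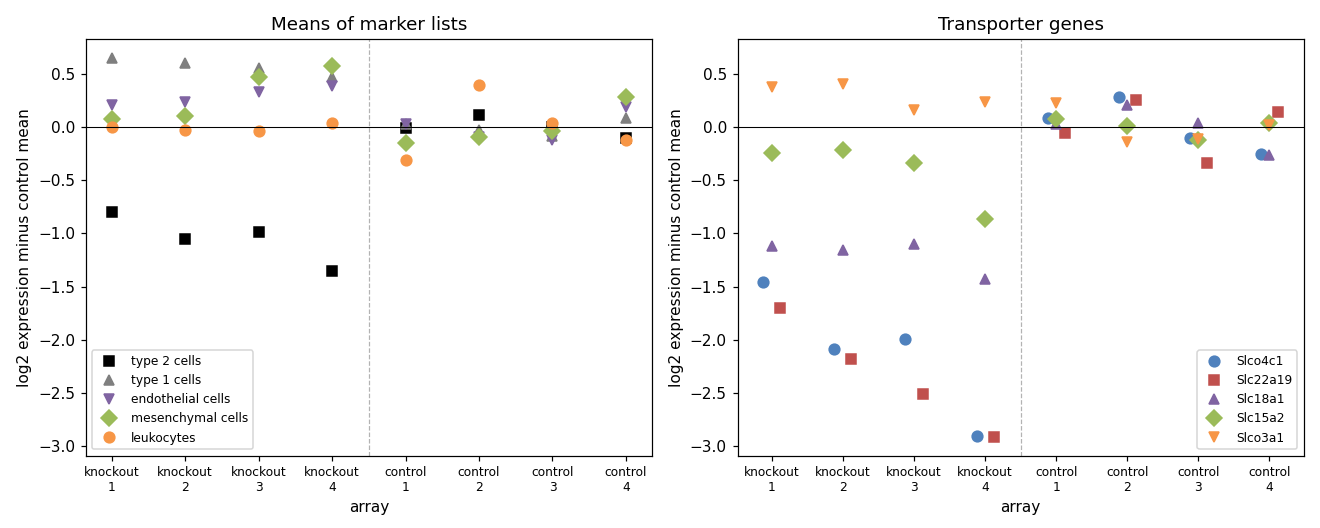
Log2 expression minus the control mean (vertical axis) in each of the 4 knockout arrays (left of the dashed line) and the 4 control arrays (right of it), for the means of 5 marker lists (left panel) and for 5 transporter genes (right panel). The type 2 mean, Slco4c1 and Slc22a19 are all lowest in knockout replicate 4 and, among knockout arrays, highest in replicate 1. Among knockout arrays the type 1 mean is also highest in replicate 1 and lowest in replicate 4. The mesenchymal and endothelial means are lowest in replicate 1 and highest in replicate 4 there.

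The next measured protein-coding genes on each chromosome were listed for the 8 members that passed, 2 on each side. Beside Slco3a1, Fam174b (0.74, SE 0.10), St8sia2 (0.24, SE 0.070) and Akap13 (0.46, SE 0.062) rose and Sv2b did not pass. Beside Slco4c1, Fam174a rose (0.29, SE 0.081) and St8sia4 did not pass (0.05, SE 0.087). Beside Slc22a13b, Myd88, an adaptor of innate immune receptors, fell by 0.85 (SE 0.081). The neighbours of Slc15a2 and Slc18a2 did not pass.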

How the data were processed

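The authors deposited log2 expression values per probe set for 8 single-colour Affymetrix arrays; how they were summarised and normalized is not given in the sources used here, and the log2 scale was read from the values (2.89 to 13.95, array medians 7.21 to 7.30). Of 35556 probe sets 21789 name 1 gene, 1621 several and 12146 none; where a gene had several, the one with the highest mean was kept, giving 19938 genes. Knockout was compared with control with limma 3.58.1 in R 4.3.3 (lmFit, eBayes), with Benjamini-Hochberg adjustment over all genes and a threshold of 0.05, and single genes with an exact permutation test. The script was tested on simulated data. The members and the lists of related and marker genes were chosen with earlier results of these data known. Named were every member that passed, every other member, the 3 genes of smallest p in each list, and Stk4; any other gene was named after its values were seen. Alternatives changed the scaling, filter, probe set, variance model, test, covariate, replicate block and arrays used. Promoter windows and gene symbols are from RefSeq (GRCm38.p6). The number of arrays limits the precision.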

Additional observations from a re-analysis of the deposited data

Results flagged for a closer look

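Among the 124 groups of 4 arrays formed by the 62 transporters, 7 held an array set apart from the other 3 by a gap of most of the group's range (Dixon's critical value), and chance marks about 1 in 20 groups. The gene that passed the test among them was Slc18a1, whose knockout replicate 4 (6.58) lay below the other knockout arrays (6.85 to 6.90) and still farther from the control arrays. Knockout replicate 4 also stood apart upward in Slc10a1 (6.08) and Slco1a6 (4.62). Control replicate 1 stood apart in Slc10a5 (5.96, below the others), Slc22a27 (4.03, above) and Slc22a14 (5.33, above), and control replicate 3 in Slc28a3 (6.13, above). All but Slc18a1 lay at or below the olfactory receptor level.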

How the results depend on the processing

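Slc18a1, Slc22a19, Slco4c1 and Slc22a18 passed in every alternative fit that tested them, with differences of −1.29 to −1.03, −2.53 to −2.0005, −2.33 to −1.65 and −0.51 to −0.43. Against 8 transporters passing (6 lower, 2 higher), leaving out 1 array gave 4 to 8 in all, 4 to 8 lower and 0 to 2 higher, and leaving out knockout replicates 1 and 4 together gave 5 in all and 0 higher. The count of higher genes was 1 above the olfactory receptor level and with trended, robust eBayes, and 0 with arrays centred on their medians or with the mesenchymal covariate. Among genes above the median level, which tested fewer members, 4 passed, 3 lower and 1 higher, with a median difference of −0.10. With the replicate block 9 passed, 8 lower and 1 higher: Slc15a1 (adjusted p = 0.00271) and Slc22a15 (adjusted p = 0.0186) passed and Slc18a2 did not (adjusted p = 0.0836). In their deviations from the group means, same-numbered arrays correlated at only −0.082 to 0.095. These values show no clear pairing but cannot exclude it, and the labels do not say whether the numbers pair the arrays. With the block 6 mesenchymal markers rose. Pdzk1, at 0.04 in the main fit, was −0.0040 with the mesenchymal covariate, −0.027 to 0.075 with 1 array left out and −0.048 without knockout replicates 1 and 4, and Ptgis was −0.0067 with that covariate; the cause was not tested. Of 45 transporters not singled out, 21 turned sign in at least 1 of 18 alternatives, at sizes up to 0.11. Slc28a3 passed without knockout replicate 4 (adjusted p = 0.0220), Slc29a4 after quantile normalization (adjusted p = 0.0272) and Slc10a6 with the mesenchymal covariate (−0.48, adjusted p = 0.00934). The 4 arrays a group and levels near background limit what could be detected.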

Other observations

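Of the transporters that passed, Slco4c1 and Slco3a1 have genes of the same pair of families on one side, while the genes on their other side differ. Fam174a and St8sia4 lie beside Slco4c1 on chromosome 1, and Fam174b and St8sia2 lie beside Slco3a1 on chromosome 7. Fam174a rose (0.29, limma adjusted p = 0.0298) where Slco4c1 fell by 2.11, and Fam174b (0.74, limma adjusted p = 0.000483) and St8sia2 (0.24, limma adjusted p = 0.0364) rose where Slco3a1 rose by 0.29. Over the 32 neighbours of the 8 transporters that passed, 4 rose and 4 fell, and of all genes 8.6% rose and 10.2% fell.

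Probe sets that name more than 1 gene were not tested. The probe set shared by Slc10a3 and Gm44504 measured 7.70, 7.80, 7.66 and 7.77 in knockout replicates 1 to 4, against 7.87, 7.94, 7.89 and 7.90 in control replicates 1 to 4, with no overlap. The probe set shared by Slc10a4 and Slc10a4l averaged 6.73 in knockout and 6.86 in control arrays, and that shared by Slc22a28, Slc22a29 and Slc22a30 averaged 4.07 in knockout and 4.12 in control arrays.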
